A study of Mus musculus with 72 samples.

Results

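Messenger RNA in the lung was compared between mice given 12 Gy of whole body X-rays and sham irradiated mice, 48 h after exposure. The comparison takes every lung mRNA array labelled 12 Gy and every one labelled 0 Gy, 3 mice on each side, which are 6 of the 72 arrays of the study. All mice were female C57BL/6 J, 6 to 8 weeks old at irradiation. The irradiated mice received the dose once at the body surface from a small animal irradiator, and the 0 Gy mice were held in the same kind of plastic container without exposure. The mice are named by the number in their labels, 1, 11 and 21 at 0 Gy and 6, 16 and 26 at 12 Gy. Lung arrays at 1, 2, 4 and 8 Gy, 3 mice at each dose, shared the normalization and the estimate of spread, and their values are given beside those at 12 Gy. RNA came from powdered whole lung, so the cells of the airways, the alveoli, the vessels and the blood inside them were measured together.

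Ionising radiation breaks DNA, and the damage activates the transcription factor p53, which raises genes that stop the cell cycle, repair DNA or start cell death. Lymphocytes and the precursors of blood cells are among the most radiosensitive cells of the body. Reticulocytes, the youngest red cells in blood, carry globin RNA, which is therefore found in any organ that holds blood.

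The 12 Gy arrays stood apart from the 0 Gy arrays in handling as well as in dose. The 0 Gy arrays lay on 1 array slide with the 1 Gy arrays, and the 3 arrays of 12 Gy lay on another slide, scanned on a later day, which held just 1 other lung array, that of 8 Gy mouse 25. The 4 arrays of that slide were dimmer, with 54.1 to 54.8% of spots well above background against 59.2 to 64% on the 0 Gy arrays, and a 75th percentile of processed intensity of 655.7 to 763.3 against 1167 to 1281. After normalization, mouse 25 correlated at 0.9801 to 0.9829 with the 12 Gy arrays and at 0.9728 to 0.9747 with 8 Gy mice 5 and 15. The arrays of mice 5 and 15 lay with the 2 and 4 Gy arrays on a further slide, scanned on the same day as the 0 Gy slide. The slide and the dose of 12 Gy against 0 Gy cannot be told apart. A model with scan day as a term could be fitted, but it takes the whole effect of the day from mouse 25 against mice 5 and 15, and its counts are given beside the main ones. Genes typical of other tissues also differed between arrays. The summed intensity of 8 thymocyte genes was 3570, 3220 and 16500 in mice 1, 11 and 21 and 2230 to 3000 at 12 Gy. *Dntt*, the terminal transferase of immature lymphocytes, had log2 intensities of 5.83, 8.22 and 13.22 in the 3 controls. The sum of 7 skeletal muscle genes was 63500 in mouse 11, 86100 in mouse 6 and 42000 in mouse 16, but 1900 to 3450 in mice 1, 21 and 26. The labelled tissue was borne out on all 6 arrays by alveolar type 2 markers such as *Sftpc*, the surfactant protein C gene, at log2 intensities of 18.15 to 18.4.

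Of 43979 probes tested, 1329 (3.02%) were called higher and 1878 (4.27%) lower at 12 Gy, where called means a change over 1 on the log2 scale with a Benjamini-Hochberg adjusted p below 0.05 (limma, n = 3 mice per dose). All 3 irradiated mice lay beyond all 3 controls for 1277 of the probes called higher and 1749 of those called lower. The calls rest on the same values, so this separation adds no support of its own. Of all tested probes, 21.8% lay wholly above and 12.8% wholly below. Mouse 25 lay more than 1 below mice 5 and 15 on the log2 scale for 27.9% of the probes called lower, against 6.95% of all probes tested. The split between directions depended on scaling. Of all calls, 41.4% were higher after quantile normalization, 24.4% with the processed intensity scaled to its 75th percentile, 28.1% in the authors' series values and 24.1% with cyclic loess. With scan day as a term, 280 probes (0.637%) were called higher and 486 (1.11%) lower, and of the 3207 calls made without it (7.29%) 469 were called again in the same direction. The 12 genes with the largest increases and the 12 with the largest decreases are described below, apart from 1 of the decreases. Of these, 9 increases and all 12 decreases were called under each other setting that gave them a value, at most 19. Against 0 Gy, 10 probes (0.0227%) were called at 1 Gy, 196 (0.446%) at 2 Gy, 644 (1.46%) at 4 Gy and 1105 (2.51%) at 8 Gy. The 1 Gy arrays shared the slide of the 0 Gy arrays and those of the higher doses did not. Slide and dose cannot be told apart in that step, and the scan day term leaves differences between slides of the same day in place.

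**Figure D1:**
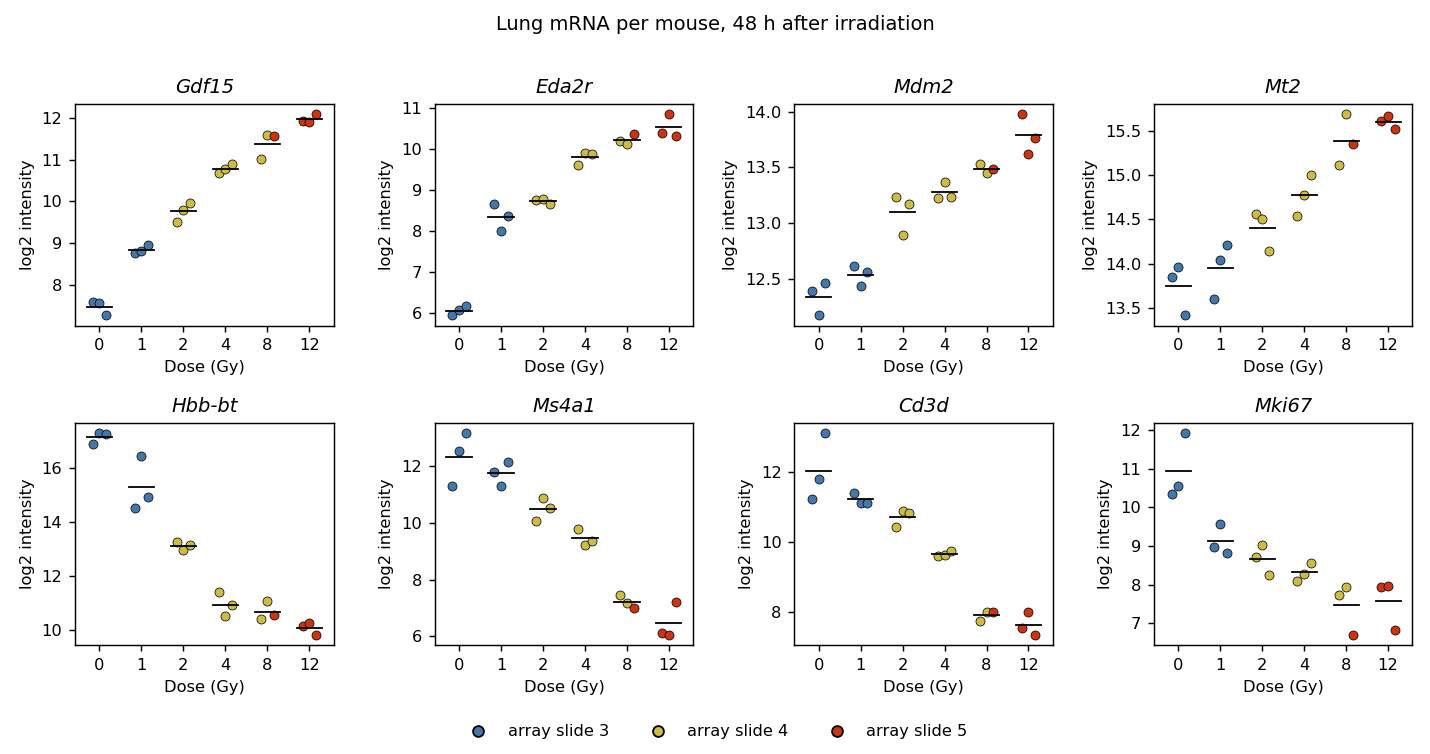
Log2 intensity of 8 genes (vertical axes) in each lung by dose in Gy (horizontal axes), with a point per mouse coloured by array slide and a bar at the group mean. *Gdf15* went from 7.26 to 7.58 at 0 Gy to 11.92 to 12.11 at 12 Gy, while *Hbb-bt* went from 16.89 to 17.3 down to 9.8 to 10.26.

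Targets of p53 rose together. Of 24 tested members of a list of p53 target genes, 19 were called higher and none lower (3.02% of all probes were called higher), with a median change of 1.76 on the log2 scale against 0.0942 over all probes tested. The 2 members with the largest changes were *Gdf15*, a stress-induced cytokine of the TGF-beta family, and *Eda2r*, a receptor of the TNF receptor family. *Gdf15* had log2 intensities of 7.58, 7.57 and 7.26 in mice 1, 11 and 21 and of 11.94, 11.92 and 12.11 in mice 6, 16 and 26. The groups lay far apart, a 23-fold rise (log2 change 4.52, SE 0.17, adjusted p = 1.08e-09, limma). *Eda2r* stood at 5.95, 6.08 and 6.17 at 0 Gy and at 10.4, 10.86 and 10.32 at 12 Gy (log2 change 4.46, SE 0.18, adjusted p = 1.08e-09). For both genes, 8 Gy mouse 25 lay within 0.3 of the mean of 8 Gy mice 5 and 15. *Cdkn1a*, which encodes the cyclin-dependent kinase inhibitor p21, read 11.37, 11.79 and 11.49 at 0 Gy and 15.26, 15.03 and 15.29 at 12 Gy on its brighter probe (log2 change 3.64, SE 0.2, adjusted p = 1.93e-08). Its other probe gave 3.83 (SE 0.24).

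The letters of a p53 motif were found in the *Cdkn1a* promoter, which describes the sequence and is no measured binding. The RefSeq promoters on GRCm38.p6 (from -250 to 50 around each annotated start) were searched for the paired cores of a p53 site, the letters CATG, any 6 bases and CATG again, a motif that reads the same on either strand. Among the 19 list genes with a promoter in that table *Cdkn1a* was the gene with a match, against 0.833% of all 27025 genes with a promoter there. The match lies in the window chr17:29090923-29090952 on the plus strand, and is shown in capitals because *Cdkn1a* was among the largest rises.
Cdkn1a: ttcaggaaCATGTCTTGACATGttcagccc
The other 18 members with a promoter had no such letters in these windows.

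Several list members that act in apoptosis were called higher, and *Fas*, *Perp* and *Ei24* were not. *Pmaip1* (Noxa) had log2 intensities of 11.06, 10.84 and 11.13 in the controls and 13.12, 13.59 and 13.18 at 12 Gy. *Bbc3* (Puma), like *Pmaip1* a BH3-only activator of cell death, read 11.51, 11.32 and 11.1 against 12.45, 12.84 and 12.55. Neither pair of groups overlapped, and the log2 changes were 2.28 (SE 0.15) and 1.3 (SE 0.15). *Bax*, the pore-forming effector of apoptosis, changed by 1.77 (SE 0.18), but mouse 25 lay 0.72 above mice 5 and 15, and with scan day as a term its change was 1.05. *Mdm2*, the ubiquitin ligase that keeps p53 low, rose by 1.45 (SE 0.14), and *Phlda3*, an inhibitor of Akt signalling, by 1.8 (SE 0.16). *Psrc1*, a microtubule regulator, rose by 3.14 (SE 0.17, adjusted p = 2.32e-08), and its mice read 7.5, 7.71 and 8 against 10.66, 11.25 and 10.71. *Aen*, an exonuclease of apoptotic nuclei, was called higher on all 4 of its probes, by 2.72 (SE 0.21) on the probe with the largest change and 2.01 (SE 0.14) on the brightest. The 5 members not called were *Ei24*, *Fas*, *Btg2*, *Plk2* and *Perp*, with log2 changes from -0.14 (*Plk2*) to 0.95 (*Perp*). Between 16 and 20 of the 24 genes were called higher under each setting, and 16 with scan day as a term.

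The other large increases were of mixed function. *Celf5*, an RNA-binding protein gene, rose by 3.73 (SE 0.26), from 7.02, 5.98 and 5.99 to 10.04, 10.18 and 9.97. *Mybl1*, a transcription factor of the Myb family, rose by 2.59 (SE 0.15), from 7.25, 7.3 and 7.48 to 9.76, 10.2 and 9.85. Their replicates differed by far less than the groups did. *A930001C03Rik* rose by 2.91 (SE 0.17) and *Pcdh20*, a protocadherin gene, by 2.72 (SE 0.3). *Saa3*, an acute phase serum amyloid gene made in the lung, rose by 3.02 (SE 0.6, adjusted p = 0.00307), and its 3 irradiated mice read 12.49, 13.39 and 12.81 against 9.77, 10.33 and 9.53. The model with scan day put *Saa3* at 4.11 with an adjusted p of 0.0745. *Cngb3*, a channel subunit, was not well above background on any 0 Gy array and was at least 5.18-fold higher at 12 Gy (adjusted p = 0.000642), a bound that takes, on each 0 Gy array, the higher of the probe's own signal and the dimmest signal well above background. *1700008C04Rik* was well above background on 1 of 3 arrays at 12 Gy and none at 0 Gy, and was at least 1.27-fold higher (adjusted p = 0.018). *Saa3* and *Cngb3* were no longer called with scan day in the model or without controls 11 and 21, and *1700008C04Rik* lost its call under 9 of 18 other settings.

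**Figure D2:**
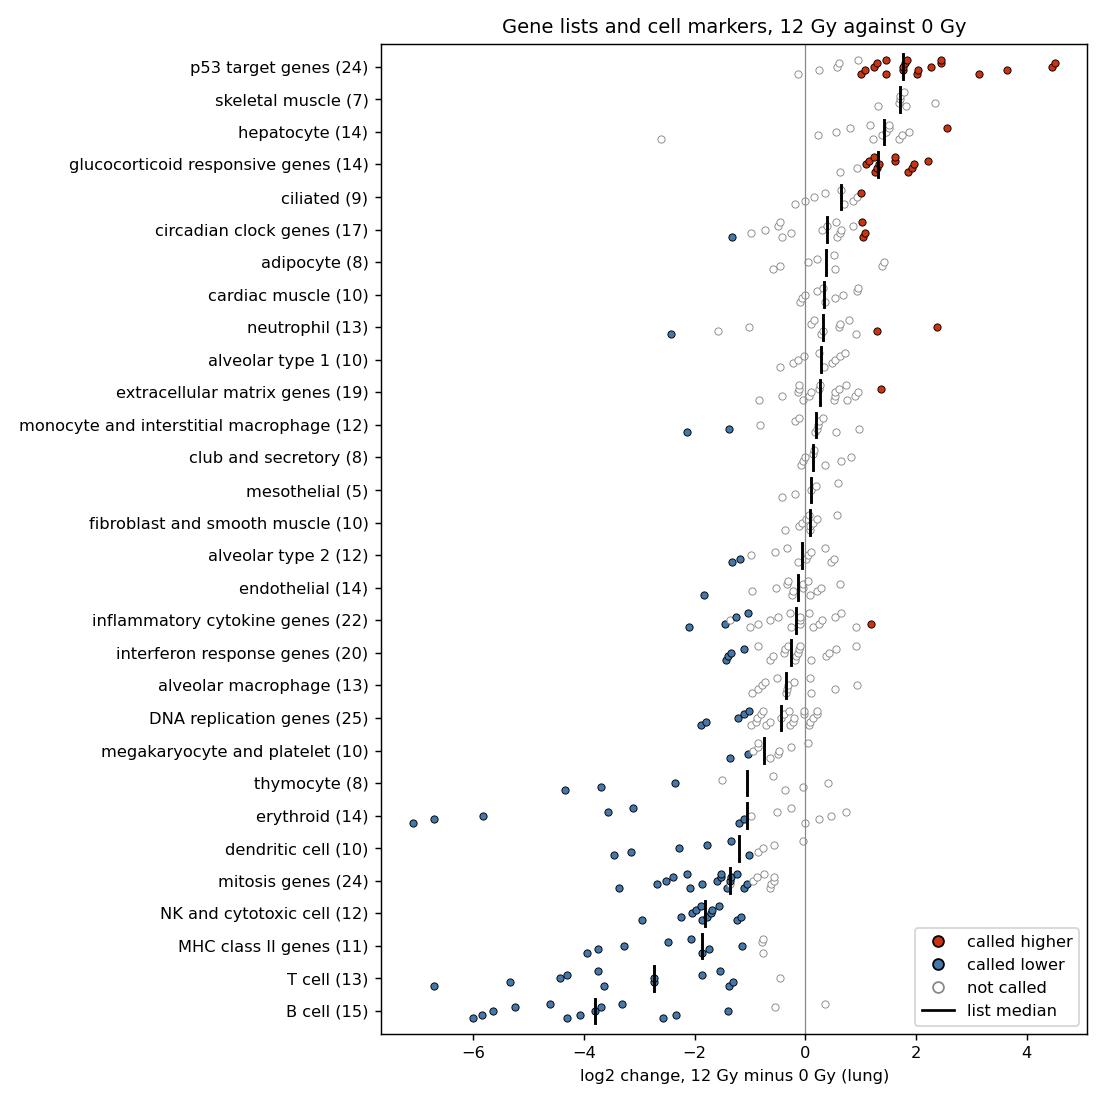
Log2 change at 12 Gy against 0 Gy in lung (horizontal axis) for the tested members of 30 gene lists (rows, number tested in brackets), where filled points were called, open points were not, and bars mark list medians. The p53 targets had a median of 1.76 and the B cell markers one of -3.81.

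Genes that glucocorticoid hormones raise were also higher. Of 14 such genes, 12 were called higher and none lower (3.02% of all probes were called higher), with a median log2 change of 1.32. *Fkbp5*, a co-chaperone of the glucocorticoid receptor, read 10.51, 9.92 and 10 at 0 Gy and 11.72, 12.37 and 12.08 at 12 Gy (log2 change 1.92, SE 0.35, adjusted p = 0.00191). *Mt2*, a metallothionein gene, read 13.85, 13.97 and 13.42 against 15.61, 15.67 and 15.52 (log2 change 1.85, SE 0.21, adjusted p = 3.49e-05). In each gene the irradiated mice lay above all controls. *Fam107a* rose by 2.22 (SE 0.28), and *Pdk4*, the kinase that shuts off pyruvate dehydrogenase, by 1.97 (SE 0.49), although its controls spread from 9.88 to 12.18. *Tsc22d3*, which encodes the anti-inflammatory protein GILZ, rose by 1.33 (SE 0.21). The medians of this list were -0.015, 0.2, 0.92 and 1.36 at 1, 2, 4 and 8 Gy. The count fell to 3 genes, *Mt1*, *Mt2* and *Errfi1*, with scan day as a term, and to 7 without controls 11 and 21. The letters ACANNNTGT, the core of a glucocorticoid receptor site, read the same on either strand. They were found in the promoters of 4 of 12 members in the RefSeq table (33.3%), against 7.9% of all genes there. Of the 10 called members among these, 2 had a match, and the other matches were in *Lcn2* and *Sgk1*, which were not called. The windows of *Fam107a* (chr14:8309877-8309905, minus strand) and *Mt1* (chr8:94178987-94179015, plus strand) are shown as those of the called members with a match, which is in capitals.
Fam107a: ggtggcttggACATGGTGTtctgagtctc
Mt1: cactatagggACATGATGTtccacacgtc

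Clock genes moved less. Of 17 tested, 3 were called higher and 1 lower, with a median of 0.399 (3.02% and 4.27% of all probes were called higher and lower, so that 1 lower is near the background). *Per1* changed by 1.08 (SE 0.25), *Nfil3* by 1.04 (SE 0.23) and *Cry2* by 1.03 (SE 0.24), while *Nr1d1*, the repressor also known as Rev-erb alpha, fell by 1.33 (SE 0.28). None of the 4 was called with scan day as a term.

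Markers of B lymphocytes had the lowest median change of the 30 lists. Of 15 genes, 13 were called lower and none higher (4.27% of all probes were called lower), and the median change was -3.81. *Fcmr*, the receptor for the Fc part of IgM, read 11.52, 12.35 and 12.85 in the controls and 6.24, 5.91 and 6.55 at 12 Gy, where 2 of 3 arrays were well above background (log2 change -6, SE 0.3, adjusted p = 9.85e-09). *Ms4a1*, which encodes CD20, read 11.3, 12.5 and 13.14 against 6.12, 6.05 and 7.22 (log2 change -5.85, SE 0.41, adjusted p = 2.5e-07). For both genes the gap between the groups was wider than the range within either. *Fcer2a*, the low-affinity IgE receptor, and *Tnfrsf13c*, the receptor for the survival factor BAFF and no member of the list, were not well above background on any 12 Gy array, and were at least 36.8-fold and 26.2-fold lower. The 2 members not called were *Blnk* at -0.54 (SE 0.19) and *Ebf1* at 0.35 (SE 0.23), and *Ebf1* is also made by fibroblasts and fat cells. Fewer cells of a type and less RNA in each cell cannot be told apart in whole lung RNA. Fitting scan day left 11 of the 15 called lower, as did leaving out controls 11 and 21. *Ms4a1* changed by -0.59, -1.83, -2.86 and -5.1 at 1, 2, 4 and 8 Gy, and mouse 25 differed from mice 5 and 15 by -0.3.

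MHC class II genes, with which B cells, dendritic cells and macrophages present antigen, fell unequally. Of 11 genes, 8 were called lower (4.27% of all probes were), with a median of -1.86. All 11 were below the controls in each irradiated mouse, as were 12.8% of all probes tested. The genes of the DO molecule, which in mice is made mainly in B cells, fell most. *H2-Oa* read 10.43, 10.91 and 11.2 at 0 Gy and 6.74, 7.28 and 6.71 at 12 Gy (log2 change -3.94, SE 0.2), and *H2-Ob* read 10, 10.39 and 10.43 against 6.47, 6.66 and 6.45 (log2 change -3.75, SE 0.18). *H2-Eb2* and *H2-DMb2* were not well above background at 12 Gy and were at least 8.94-fold and 5.58-fold lower. Genes that every class II cell uses changed less on their brightest probes, with *H2-Aa* at -1.75 (SE 0.24), *H2-Eb1* at -1.14 (SE 0.13), and *Cd74*, the invariant chain, at -0.77 (SE 0.16). *H2-DMa* at -2.07 and *Ciita* at -1.86 were also called lower, and *H2-DMb1*, at -0.78, was not. For *H2-Ab1* the brightest probe, at -0.77, was not called, but its other 3 probes were called lower. In the model with scan day, 10 of the 11 were called lower.

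T cell markers fell in 12 of 13 genes tested, with a median of -2.73 (4.27% of all probes were called lower). *Cd3d*, a subunit of the T cell receptor complex, read 11.22, 11.8 and 13.12 at 0 Gy and 7.54, 7.98 and 7.33 at 12 Gy (log2 change -4.43, SE 0.33, adjusted p = 6.29e-07). *Cd8a*, a chain of the co-receptor of cytotoxic T cells, read 8.61, 9.23 and 12.06 in the controls, and was not well above background on any 12 Gy array. Mouse 21, the control with the most RNA of thymocyte genes, was also the highest control for both. *Cd8a* was at least 30.2-fold lower and *Cd8b1*, the other chain, at least 97.5-fold lower, where the fitted changes were -5.34 (SE 0.57) and -6.72 (SE 0.57). Without mouse 21, 10 of the 13 genes were called lower with a median of -2.33, and without mice 11 and 21 together 9 were, with a median of -2.17. Of the 8 thymocyte genes, 3 were called lower, namely *Dntt*, *Ccr9* and *Themis*, and 1, *Ccr9*, remained without those 2 controls or with a random effect of slide. With scan day in the model, *Ccr9* was not called, and *Ptcra*, which was not well above background on any array at 0 or 12 Gy, was called instead. In that model 7 of the 13 T cell genes were called. *Cd4* was not among these. It read 10.2, 10.39 and 11.62 at 0 Gy, 10.34 and 10.51 in 8 Gy mice 5 and 15, and 9.25 in 8 Gy mouse 25, near the 9.15, 9.72 and 9.19 of the 12 Gy mice on the same slide.

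Natural killer and cytotoxic cell genes were called lower in all 12 members tested (4.27% of all probes were), with a median of -1.82. Their sums did not move with the thymocyte genes, at 15600, 15100 and 15000 in controls 1, 11 and 21 and 2930 to 5680 at 12 Gy. *Klrd1*, a receptor chain of these cells, read 11.1, 11.05 and 10.88 against 7.78, 8.37 and 8.04 (log2 change -2.95, SE 0.22, adjusted p = 6.81e-07). *Nkg7*, a protein of cytotoxic granules, read 11.14, 11.11 and 11.36 against 8.64, 9.54 and 8.72 (log2 change -2.24, SE 0.3). Controls agreed within 0.3 for both genes. Of the 12, 9 were called lower with scan day in the model, at a median of -2.42.

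**Figure D3:**
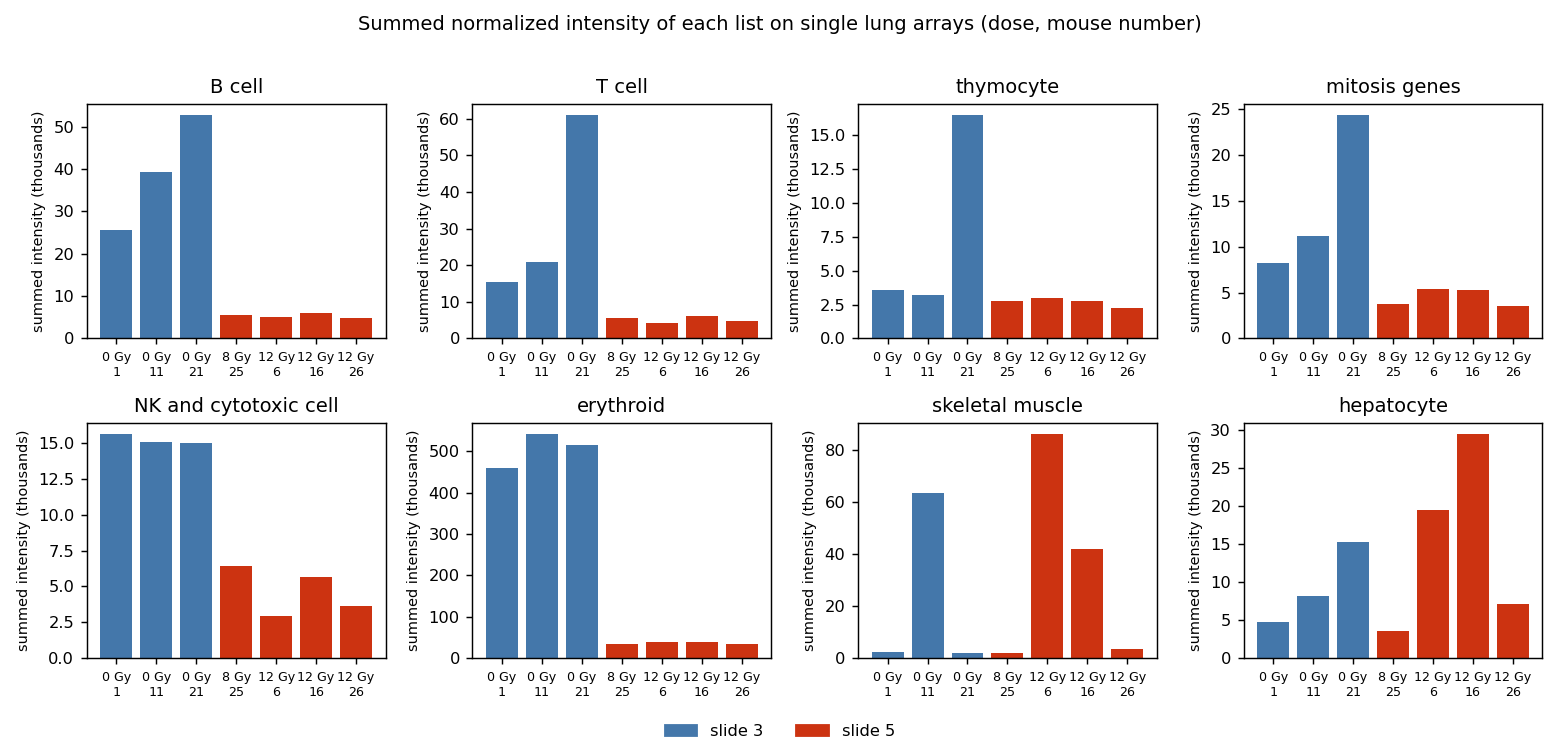
Summed normalized intensity (vertical axes) of 8 gene lists on single lung arrays (horizontal axes: dose and mouse number), with bars for 0 Gy mice 1, 11 and 21 on slide 3 and for 8 Gy mouse 25 and 12 Gy mice 6, 16 and 26 on slide 5. The thymocyte sum stands out in mouse 21 at 16500, and the erythroid sum goes from 459000 to 541000 at 0 Gy to 34700 to 39300 at 12 Gy.

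Genes of maturing red cells gave the largest single decreases. *Hbb-bt*, an adult beta globin gene, read 16.89, 17.3 and 17.28 at 0 Gy and 10.14, 10.26 and 9.8 at 12 Gy, a 136-fold fall (log2 change -7.09, SE 0.37, adjusted p = 1.56e-08). *Alas2*, the enzyme that starts heme synthesis in erythroid cells, read 13.58, 13.8 and 13.47 against 7.17, 6.97 and 6.59, a 105-fold fall (log2 change -6.71, SE 0.43, adjusted p = 1.19e-07). The mice of a group differed by less than 0.6 in both genes. *Hbb-b2* fell by 7.19 (SE 0.52) and *Hbb-b1* by 5.82 (SE 0.48), but probes for globin genes share sequence and cannot be read as separate genes. *Hba-a1*, an alpha globin, fell by 3.12 (SE 0.26), and *Slc4a1*, the anion exchanger of the red cell membrane, was at least 11.8-fold lower and not well above background at 12 Gy, though no longer called with scan day in the model (adjusted p = 0.0552). In all, 7 of 14 erythroid genes were called lower and none higher (4.27% of all probes were called lower), with a median of -1.05. The members not called included *Klf1*, the transcription factor of red cell precursors, at 0.47 (SE 0.25) and well above background on 1 of the 6 arrays, and *Hemgn*, at 0.74 (SE 0.14) on its brightest probe, whose other probe was called lower. Already at 1 Gy *Alas2* was at -2.33, and at 8 Gy it was at -6.84. With the day of scanning fitted, 4 of the 14 were called lower, the globins *Hba-a1*, *Hbb-b1* and *Hbb-bt* and *Alas2*.

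A pair of other genes fell on this scale. *Zdhhc22*, of the palmitoyltransferase family, read 11.97, 13.11 and 12.71 against 5.82, 5.59 and 5.65 (log2 change -6.91, SE 0.5), with 1 of the 3 irradiated arrays well above background. *Unc93a2* read 9.79, 11.44 and 10.68 at 0 Gy, was not well above background on any 12 Gy array, and was lower there by at least 47.4-fold. The difference of 8 Gy mouse 25 from mice 5 and 15 was -1.35 for the first gene and -1.1 for the second.

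Genes of mitosis fell, by an amount that depended on the control mice. Of 24 genes, 16 were called lower and none higher (4.27% of all probes were called lower), with a median of -1.37, and 20 were lower in each irradiated mouse than in any control, as were 12.8% of all probes tested. *Mki67*, the proliferation marker Ki-67, read 10.35, 10.54 and 11.91 at 0 Gy and 7.93, 7.97 and 6.84 at 12 Gy (log2 change -3.36, SE 0.42, adjusted p = 0.000111). *Birc5*, which encodes survivin, read 9.45, 9.89 and 11.39 against 8.13, 7.75 and 6.79 (log2 change -2.69, SE 0.39). Mouse 21 was the highest control in both. The sums of the list were 8250, 11200 and 24400 in mice 1, 11 and 21 and 3530 to 5390 at 12 Gy. Against the same controls the list medians were -1.11, -1.37, -1.63 and -1.59 at 1, 2, 4 and 8 Gy. The median of 12 Gy minus 8 Gy was 0.32, so the fall was not particular to 12 Gy. Without mouse 21, 9 genes were called lower with a median of -0.892, and without mice 11 and 21, 4 were, with a median of -0.789. None was called with scan day as a term, at a median of -1.53. The part of thymocyte RNA in these counts was not tested. *Ube2c* fell by 2.39 (SE 0.36), *Ccna2*, cyclin A, by 2.13 (SE 0.35) and *Top2a*, the topoisomerase of dividing cells, by 2.09 (SE 0.39). For *Cdk1* and *Prc1*, whose brightest probes were not called, a further probe of each was called lower. DNA replication genes moved less, with 5 of 25 called lower, a median of -0.442, and *Tk1*, thymidine kinase, at -1.89 (SE 0.3) the largest. Of these, 2 were called lower without mouse 21, 1 without mice 11 and 21, and none with scan day in the model.

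Promoters of mitosis genes shared short motifs. The letters TTTGAA, a cell cycle element bound by the complex that represses mitosis genes outside division, were found on one strand or the other in 14 of 20 members with a promoter in the table (70%), against 20.2% of all genes in the table. CCAAT, the site of the factor NF-Y, was found in 17 of 20 (85%), against 41.1%. Of the 12 members among these that were called lower, 7 had TTTGAA and 10 had CCAAT, so the matches were not confined to called genes. A match describes the letters and is not a measured site. The windows of the called genes with the largest decreases and a TTTGAA match are shown, with the match in capitals, for *Mki67* (chr7:135716478-135716507, minus strand), *Ube2c* (chr2:164769888-164769917, plus strand, match on the opposite strand) and *Top2a* (chr11:99024351-99024380, minus strand).
Mki67: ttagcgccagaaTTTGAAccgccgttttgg
Ube2c: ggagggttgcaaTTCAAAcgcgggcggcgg
Top2a: ctattggtccatTTTGAAgattctcccgcc

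Among myeloid cells, dendritic cell genes fell and others were mixed. Of 10 dendritic cell genes, 6 were called lower (4.27% of all probes were), with a median of -1.19. *Flt3*, the growth factor receptor of dendritic cell precursors, read 8.77, 8.52 and 8.49 at 0 Gy, was not well above background on any 12 Gy array, and was at least 10.8-fold lower (adjusted p = 3.47e-08). *Ccr7*, the chemokine receptor that leads dendritic cells and lymphocytes to lymph nodes, fell by 3.16 (SE 0.32), and *Cd209a* by 1.78 (SE 0.23). *Siglech*, a marker of plasmacytoid dendritic cells, was at -2.29 (SE 0.64) with 2 usable spots at 12 Gy, but 8 Gy mouse 25 differed from mice 5 and 15 by -2.41, and with scan day as a term its change was 0.12. Of 12 genes of monocytes and interstitial macrophages, 2 were called lower, *Ccr2*, well above background on 1 of 3 arrays at 12 Gy, by 2.14 (SE 0.28) and *Cx3cr1*, the fractalkine receptor, by 1.38 (SE 0.22). The median of the list was 0.199 and 7 of its genes had changes above 0, with *Ly6c2* at 0.97 and not called. *Ccr2* was not called with scan day in the model (adjusted p = 0.144). No gene of 13 for alveolar macrophages was called, with *Marco* at 0.93 (SE 0.34) and *Car4* at -0.86 (SE 0.22). Of 13 neutrophil genes, *Stfa2l1* rose by 2.38 (SE 0.33), *Mmp8* was called at 1.29 (SE 0.37) and *Camp* at -2.43 (SE 0.74). Of all probes, 3.02% were called higher. The mice overlapped for *Camp*, at 9.51, 6.67 and 9.59 against 6.38, 6.71 and 5.39, and *Mmp8* turned to -0.23 with scan day as a term. No neutrophil gene was called in that model, where *Stfa2l1* was at 1.24 (adjusted p = 0.275). *S100a8* and *S100a9*, the main calgranulins of neutrophils, were not called, at 0.11 (SE 0.35, with 2 usable spots at 12 Gy) and 0.91 (SE 0.29). Of 10 megakaryocyte and platelet genes, *Tubb1* at -1.04 (SE 0.27) and *Gp1bb*, not well above background at 12 Gy, were called lower, with a list median of -0.748. *Tubb1* lost its call under 7 of 19 other settings and *Gp1bb* under 7 of 18, and no gene of this list was called with scan day as a term.

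Inflammatory and interferon genes were not raised as groups. Of 22 cytokine and chemokine genes, 1 was called higher and 4 lower, with a median of -0.175 (3.02% and 4.27% of all probes were, so that 1 higher is near the background). *Ccl5*, a chemokine of T and NK cells, fell by 2.1 (SE 0.23), from 13.69, 13.53 and 13.82 to 11.41, 12.07 and 11.26. *Il33*, an alarmin of lung epithelium, was called lower at -1.26 (SE 0.24) on the 2 irradiated arrays with a usable spot. With scan day as a term the cytokine genes called were *Ccl5* and *Ccl4*, both lower. *Cxcl12* fell by 1.04 (SE 0.26) and *Ccl3* was at least 2.24-fold lower. *Cxcl5*, which recruits neutrophils, rose by 1.19 (SE 0.23). *Il6*, *Tnf* and *Il1b* had changes of -0.1 (SE 0.26), -0.28 (SE 0.18) and 0.07 (SE 0.3) and were not called. Of 20 interferon response genes, 4 were called lower and none higher, with a median of -0.25 (4.27% of all probes were called lower). *Rsad2* fell by 1.43 (SE 0.23), *Cxcl10* by 1.4 (SE 0.28), *Cxcl9* by 1.35 (SE 0.39) and *Ifi44* by 1.1 (SE 0.31). None of these 4 was called with scan day as a term, where *Ifi44* was at 0.04.

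Few markers of the resident cells of the lung were called. Of all probes, 3.02% were called higher and 4.27% lower, so that a single call in a list of this size is near the background. No gene was called among 10 of alveolar type 1 cells, 8 of club and secretory cells, 10 of fibroblasts and smooth muscle and 5 of the mesothelium. Their medians were 0.288, 0.146, 0.0778 and 0.11 on the log2 scale. For *Acta2*, *Myh11* and *Cnn1* of smooth muscle, another probe than the brightest was called lower. Of 12 alveolar type 2 genes, *Lyz1* at -1.32 (SE 0.3) and *Sftpb*, the surfactant protein B gene, at -1.18 (SE 0.39) were called lower. For *Sftpb*, 8 Gy mouse 25 read 14.72, below the 15.56, 15.5 and 15.45 of the 12 Gy mice on its slide, and with scan day as a term the change was 0.9. *Lyz1* was at 0.11 in that model, and it also lost its call with slide as a random block and without controls 11 and 21. *Sftpb* was not called under 12 of 19 other settings. *Sftpc* was at -0.13 and *Sftpd* at 0.05. Of 14 endothelial genes 1 was called, *Aplnr*, the apelin receptor, which read 11.88, 11.34 and 11.59 at 0 Gy and 9.69, 10.05 and 9.55 at 12 Gy (log2 change -1.84, SE 0.29, adjusted p = 0.000624). *Aplnr* was at -2.76 and still called in the model with scan day. *Cldn5* and *Pecam1*, which hold endothelial cells together, were at 0.29 and -0.24 and not called. Of 9 ciliated cell genes 1, *Dynlrb2*, was called higher at 1 (SE 0.18), and 11 other settings did not call it. The ciliated list had a median of 0.65, against 0.0942 over all probes tested. With scan day as a term its median was 0.447 and none of its genes was called. Of 19 matrix genes, *Timp1*, an inhibitor of matrix proteases, was called higher at 1.36 (SE 0.23) but not with scan day in the model (adjusted p = 0.182), while *Col1a1* was at -0.83 (SE 0.23, adjusted p = 0.019) and *Col3a1* at -0.12.

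Genes of muscle, fat and liver were uneven between mice and mostly not called. None of 7 skeletal muscle, 10 cardiac muscle and 8 fat cell genes was called, and in the skeletal muscle genes the standard errors exceeded 1, as in *Tnnt3* at 1.71 (SE 1.6). The sum of 14 hepatocyte genes was 19400, 29400 and 7160 in mice 6, 16 and 26 and 4720 to 15200 in the controls. Of these 14 genes 1 was called higher (3.02% of all probes were), *Tat*, the tyrosine aminotransferase gene, which glucocorticoids raise. *Tat* read 7.44, 7.38 and 7.83 at 0 Gy and 9.4, 10.54 and 10.41 at 12 Gy (log2 change 2.57, SE 0.33, adjusted p = 0.000118). In 8 Gy mouse 25 the hepatocyte sum was 3510 and *Tat* read 9.57. The part of liver RNA in this change was not tested.

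**Figure D4:**
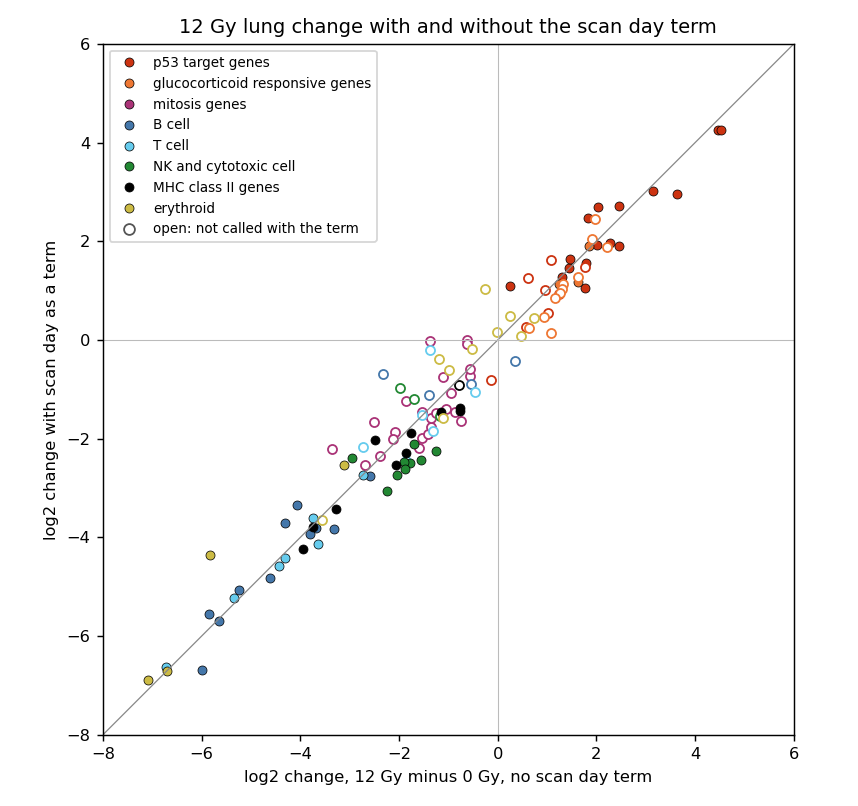
Log2 change at 12 Gy against 0 Gy in lung without (horizontal axis) and with (vertical axis) scan day as a term of the model, for members of 8 lists (colours), with open points for genes not called with the term and a line of equal values. B cell and p53 points lie near the line and mostly stay called (11 and 16 genes). None of the mitosis genes stays called, at a median of -1.53 with the term and -1.37 without it.

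The 12 Gy lungs were also set against 8 Gy lungs, to ask what the higher dose added. Of 43979 probes, 81 (0.184%) were called, 10 higher (0.0227%) and 71 lower (0.161%) at 12 Gy, and 8650 had an unadjusted p below 0.05. None of the 24 leading genes was called. *Gdf15* was 0.6 (SE 0.17) above its 8 Gy level with an adjusted p of 0.105, and *Ms4a1* was at -0.75 (SE 0.41) with an adjusted p of 0.318. A missed threshold does not show equal levels. The count rested on the 8 Gy mice. It was 1702 without mouse 25, whose array lay on the 12 Gy slide, 2 without mouse 5 or without mouse 15, 141 without 12 Gy mouse 6, 49 without mouse 16 and 16 without mouse 26. With slide as a fixed term, which mouse 25 makes possible here, it was 156. *Ccdc184* had the largest increase, with 7.67, 7.93 and 7.72 at 8 Gy and 9.12, 9.25 and 8.93 at 12 Gy (log2 change 1.33, adjusted p = 0.0249), and mouse 25 differed from the other 8 Gy mice by -0.08. Against 0 Gy it was at 2.46 (SE 0.18). *AK002748* and *Cdc20b*, with changes of 1.21 and 1.16, followed. The decreases named by the same rule were in the probe *NAP112865-1* (-2.17) and in *AF099016* and *X95399*, both not well above background at 12 Gy. All 6 of these calls were lost without mouse 5 and again without mouse 15, and *Cdc20b*, *AF099016* and *NAP112865-1* also lost theirs with slide as a fixed term. For *AF099016*, mouse 25 read 5.86 against 7.78 and 7.9 in mice 5 and 15. For *NAP112865-1* it read 11.93 against 13.89 and 13.65 in mice 5 and 15, so that it lay nearer to the 12 Gy mice of its slide, at 11.66, 10.53 and 10.77.

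The change at 12 Gy was compared between lung and liver of the same series, where lung and liver arrays were normalized and fitted together. In liver too the 0 Gy and 12 Gy arrays lay on different slides, scanned on the same day. Of 47376 probes, 2778 (5.86%) differed in their change, 1509 (3.19%) more positive and 1269 (2.68%) more negative in lung. Of 15 B cell genes 11 and of 13 T cell genes 9 fell further in lung than in liver. No member differed the other way, and median changes were -4.05 and -2.56 in lung and -1.22 and -0.75 in liver. Whether the probes compared here were well above background in unirradiated liver was not tested. A dim probe has little room to fall. *Cd3d* changed by -4.73 in lung and -1.7 in liver (difference -3.03, adjusted p = 0.000181). *Cd3e* changed by -3.94 in lung and was at -0.35 in liver. Among p53 targets, 3 were more positive in lung, *Gdf15* (difference 2.54), *Pmaip1* and *Bbc3*, and 3 less, *Cdkn1a*, *Phlda3* and *Plk2*. The probes of *Cdkn1a* disagreed, since the brighter gave -1.91 (adjusted p = 0.000393) and the other 1.49 (adjusted p = 0.00628), although both rose in each tissue. *Eda2r* changed by 4.37 in lung and 4.01 in liver (difference 0.37, SE 0.37, not called). Globin genes fell in both organs, with *Hbb-bt* at -8.68 in liver, but *Alas2* was at -1.14 there (adjusted p = 0.064) and at -7.17 in lung in this fit (difference -6.03, adjusted p = 8.17e-08). Of 20 interferon response genes, 7 were more positive in lung than in liver, and none more negative. Of 14 glucocorticoid responsive genes none differed, with medians of 1.39 in lung and 1.33 in liver. The largest positive difference was in *Serpina9*, whose probes both changed by 1.19 in lung in this fit and were at -5.9 and -4.11 in liver. The difference for *AA545190*, near background in lung, was 4.16, from 1.36 in lung and -2.79 in liver. The negative differences named by the same rule were in *Alas2*, *ENSMUST00000120745.1* (-4.05) and *Unc93a2*, whose level at 12 Gy was not well above background in lung and leaves its fitted difference without an exact size. *ENSMUST00000120745.1* read 6.93 in 8 Gy mouse 25 against 11.47 and 11.66 in mice 5 and 15.

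**Figure D5:**
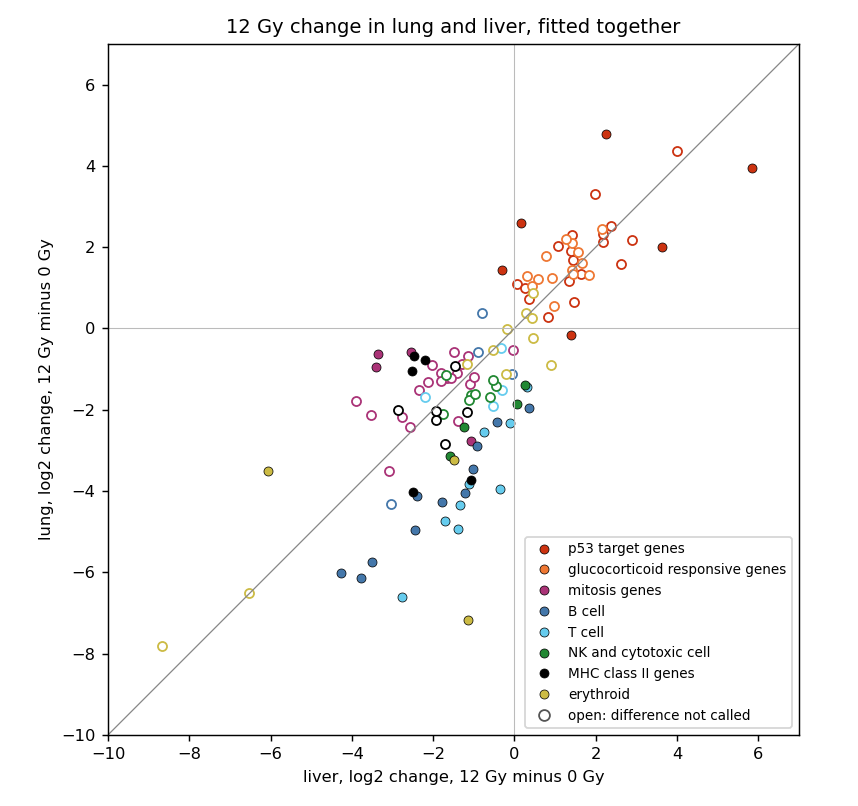
Log2 change at 12 Gy against 0 Gy in liver (horizontal axis) and lung (vertical axis) from the fit of both tissues, for members of 8 lists (colours), with filled points where the change differed between tissues and a line of equal values. The B and T cell genes lie below the line except *Blnk*, *Ebf1* and *Cd2*, and 11 of 15 and 9 of 13 had a difference that was called.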

How the data were processed

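RNA from lung was hybridised to 1-colour Agilent mouse arrays. The deposited scanner tables hold, per the file headers, spot and local background intensities as medians over pixels (Agilent Feature Extraction 11.5.1.1), not normalized between arrays. The authors' series values are linear intensities whose procedure is not given in the sources used here. Background was corrected by normexp (limma 3.58.1, R 4.3.3, offset 0), control spots were dropped, spots marked as outliers were set missing (1578 on 12 Gy mouse 16, at most 600 on the others), and the 18 lung arrays were quantile normalized on the log2 scale. Spots of a probe were averaged. A probe was tested if well above background on at least 1 of the 18 arrays. limma was fitted with 6 dose groups. Symbols came from RefSeq accessions (28753 of 43979 tested probes matched). A list gene is represented by its brightest tested probe. *Mx1*, *Mx2* and *Ahsp* had no probe by name, and *Npas2* and *Rhag* were not above background.

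The genes named are the 12 largest increases and decreases among called probes with all 3 mice beyond all 3 controls, up to 4 called members per list or the 2 of smallest p, the 3 largest changes of the comparisons with 8 Gy and liver, and, chosen after their values were seen, further list members. One gene that this rule names is not reported here. The comparison, members and lists were chosen with earlier results of these data known. A fold given as at least N raises the dim probe, array by array, to the lowest detected signal wherever it lay below that, and so equals the plain fold where it lay below on no array. The number of arrays limits precision, and depth does not apply. Settings tried were other scalings, filters, offsets, weights, slide or scan day terms and leaving out mice. The model was tested on simulated data.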

Additional observations from a re-analysis of the deposited data

Results flagged for a closer look

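The change at 12 Gy differed between lung and liver for 2778 probes by the test of the difference itself (limma, both tissues fitted together, n = 3 mice per dose and tissue). Among the genes named above, the difference of log2 changes, lung minus liver, was positive for *Gdf15* (2.54), *Cdkn1a* on its dimmer probe (1.49), *Celf5* (1.47), *Pcdh20* (2.1), *1700008C04Rik* (2.96), *AA545190* (4.16) and both probes of *Serpina9* (7.1 and 5.3). It was negative for *Zdhhc22* (-3.55), *Cd8b1* (-3.83), *Alas2* (-6.03), *Fcmr* (-2.36), *Ms4a1* (-1.75), *Unc93a2* (-4.14), *Tnfrsf13c* (-3.34), *Cd8a* (-3.52) and *ENSMUST00000120745.1* (-4.05). In lung at 12 Gy, *Unc93a2*, *Cd8b1*, *Tnfrsf13c* and *Cd8a* were not well above background on any array, and *Zdhhc22*, *1700008C04Rik* and *AA545190* were on 1 of 3. The sizes of the fitted differences of these genes are therefore not exact. The lung arrays of 12 Gy lay on a slide of their own scan day. The liver arrays of 0 Gy and 12 Gy also lay on different slides, scanned on the same day. The part of slide and scan day in these differences was not tested. Detection of these probes in unirradiated liver was not tested either.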

How the results depend on the processing

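The counts of probes called at 12 Gy were 1329 higher and 1878 lower. Higher calls numbered 702 with cyclic loess, 650 with an offset of 50, 632 with slide as a random block, 280 with scan day as a term and 712 without controls 11 and 21. Lower calls numbered 3535 with the processed intensity scaled to its 75th percentile, 3189 in the authors' series values, 996 with the offset, 711 with the random block, 486 with scan day and 758 without those controls. The last 2 settings were chosen after seeing the data. Leaving out each mouse gave 975 to 1836 higher and 1492 to 2136 lower. The 81 calls against 8 Gy became 253 with the 75th percentile scaling and 156 with slide as a term, and 2 to 1702 without single mice. The 2778 differences from liver became 4177 with the scaling, and 1994 to 3234 without single arrays. Slide as a fixed term could not be fitted for 12 against 0 Gy. Cyclic loess shifted the median of all changes from 0.094 to -0.029. With mouse number as a replicate block, 2775 probes differed from liver. The deviations of liver and lung arrays of 1 number from their group means did not correlate (18 correlations from -0.05 to 0.05). Whether both came from the same mouse was not tested, and such correlations between different tissues cannot decide it. With scan day as a term, direction turned for *Ifi44* (0.04), *Mmp8* (-0.23), *Siglech* (0.12), *Lyz1* (0.11), *Sftpb* (0.9), *Myh11* (-0.2), *Upk1b* (-0.18) and *Lep* (0.76), and without controls 11 and 21 for *Myh11* (-0.05). The cause was not tested. The dimmer 12 Gy arrays limit low signals there, and 804 probes called lower were not well above background on any of them.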
